A study of Rattus norvegicus with 31 samples.

Results

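Albumin (Alb) and 9 apolipoprotein genes, Apoa1, Apoa2, Apoa4, Apoa5, Apob, Apoc3, Apoe, Apoh and Apom, were taken by symbol from the count table of 31 rat livers. All 10 were found among its 26312 genes, and all 10 were among the 19904 genes with at least 2 counts over all livers that entered the tests. The livers were those of young adult female Wistar (Crl:WI) rats dosed by gavage for 28 days with 0.5% aqueous carboxymethyl-cellulose as vehicle. The controls (n = 8) received vehicle only. The single compounds were the neonicotinoid insecticides thiacloprid (THI, 108 mg/kg bw/day, n = 4) and clothianidin (CTD, 288 mg/kg bw/day, n = 3) and the azole fungicide imazalil (IMZ, 93 mg/kg bw/day, n = 4). The study marks this CTD group as having lost at least 1 rat that was killed when moribund. The binary mixtures were THI + IMZ at 54 and 46 mg/kg bw/day, THI + CTD at 54 and 134 mg/kg bw/day, and IMZ + CTD at 46 and 135 mg/kg bw/day, with n = 4 rats each. Each treatment was sequenced at 1 dose level, the high dose group of the study and not its top dose, so no dose series was analysed here.

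Hepatocytes make albumin, the main carrier protein of plasma, and most of the apolipoproteins, which wrap lipids into lipoproteins and steer their exchange and uptake. Apob is the scaffold of very low density lipoproteins and Apoa1 that of high density lipoproteins (HDL), while Apoc3 slows and Apoa5 speeds the breakdown of their triglycerides and Apoe is a ligand of the receptors that clear remnants. Apoh is a phospholipid-binding plasma glycoprotein whose name comes from its association with lipoproteins, although its known roles lie mostly in coagulation.

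Levels are given in CPM, the read count of a gene scaled to the size of its library after TMM normalization, and log2 fold changes (log2FC) with their standard error (SE) and adjusted p come from the quasi-likelihood test of edgeR over all 19904 genes, called at an adjusted p under 0.05. The 6 treatments share the same 8 controls, so their values are set side by side and are not independent of each other. In bulk liver RNA, fewer cells of a type and less RNA per cell cannot be told apart.

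Library totals ran from 31.8 to 101 M counts. Hepatocyte markers were abundant in every liver, with 9 of the 10 listed markers tested and a summed level of 16710 to 22270 CPM in the controls. Intestinal markers, of interest because the gut also makes Apoa1, Apoa4 and Apob, summed to at most 4.92 CPM in any liver. Between 50 genes (IMZ) and 2518 genes (CTD) were called per treatment.

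Alb took 13.7% of all counts on average, from 10.8% to 17.1% over the 31 livers, and the 9 apolipoprotein genes together took 3.66%, from 3.22% to 4.21%. Among the single genes, Apoe held 1.79% and Apob 0.896% of the counts, and Apom, the carrier of a signalling sphingolipid in HDL, held 0.0384%. These shares are counts and were not divided by transcript length, so they do not rank the transcripts. In the CTD livers the apolipoprotein share was 3.36% ± 0.124 (SD, n = 3) against 3.67% ± 0.122 (SD, n = 8) in the controls, and every CTD liver lay below the lowest control, as the highest CTD value was 3.44% and the lowest control 3.48%. Single livers of other treatments also lay below this control, at 3.28% and 3.39% in THI + CTD, 3.29% in IMZ + CTD, 3.33% in THI + IMZ and 3.43% in IMZ. The difference in share was not tested. The Alb share was 14.1% ± 0.508 in the same CTD livers and 13.6% ± 1.17 in the controls, with overlapping ranges.

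**Figure D1:**
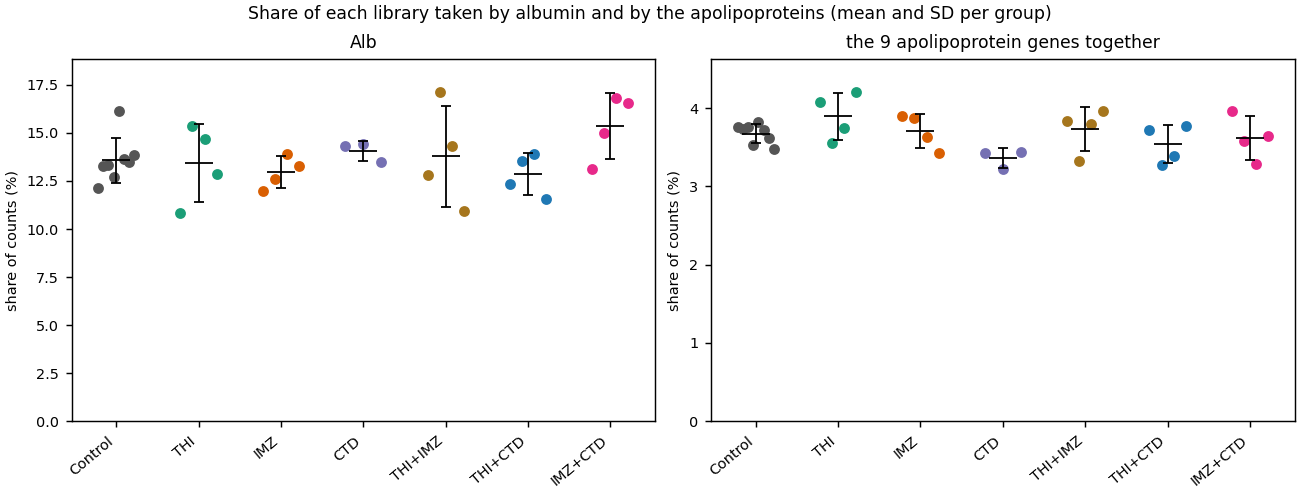
Share of all counts (%, vertical axis from 0) taken by Alb (left) and by the 9 apolipoprotein genes together (right) in each liver (points) of the 7 groups, with the group mean and SD as bars. The 3 CTD livers lie between 3.22% and 3.44% in the right panel, below the control minimum of 3.48%. Some livers of THI + CTD, IMZ + CTD, THI + IMZ and IMZ also lie below it. The Alb shares of all groups overlap with the controls.

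The genes differed in how far rats of the same group spread. The residual SD on the log2 scale was smallest for Apoh (0.10), Apoc3 (0.14) and Apoe (0.15) and largest for Apoa1 (0.33) and Apoa4 (0.45). Among the 8 controls the highest liver exceeded the lowest by a factor of 1.21 for Apoh and 1.63 for Apoa4. A change of the same size was therefore easier to detect in Apoh or Apoc3 than in Apoa1 or Apoa4.

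**Figure D2:**
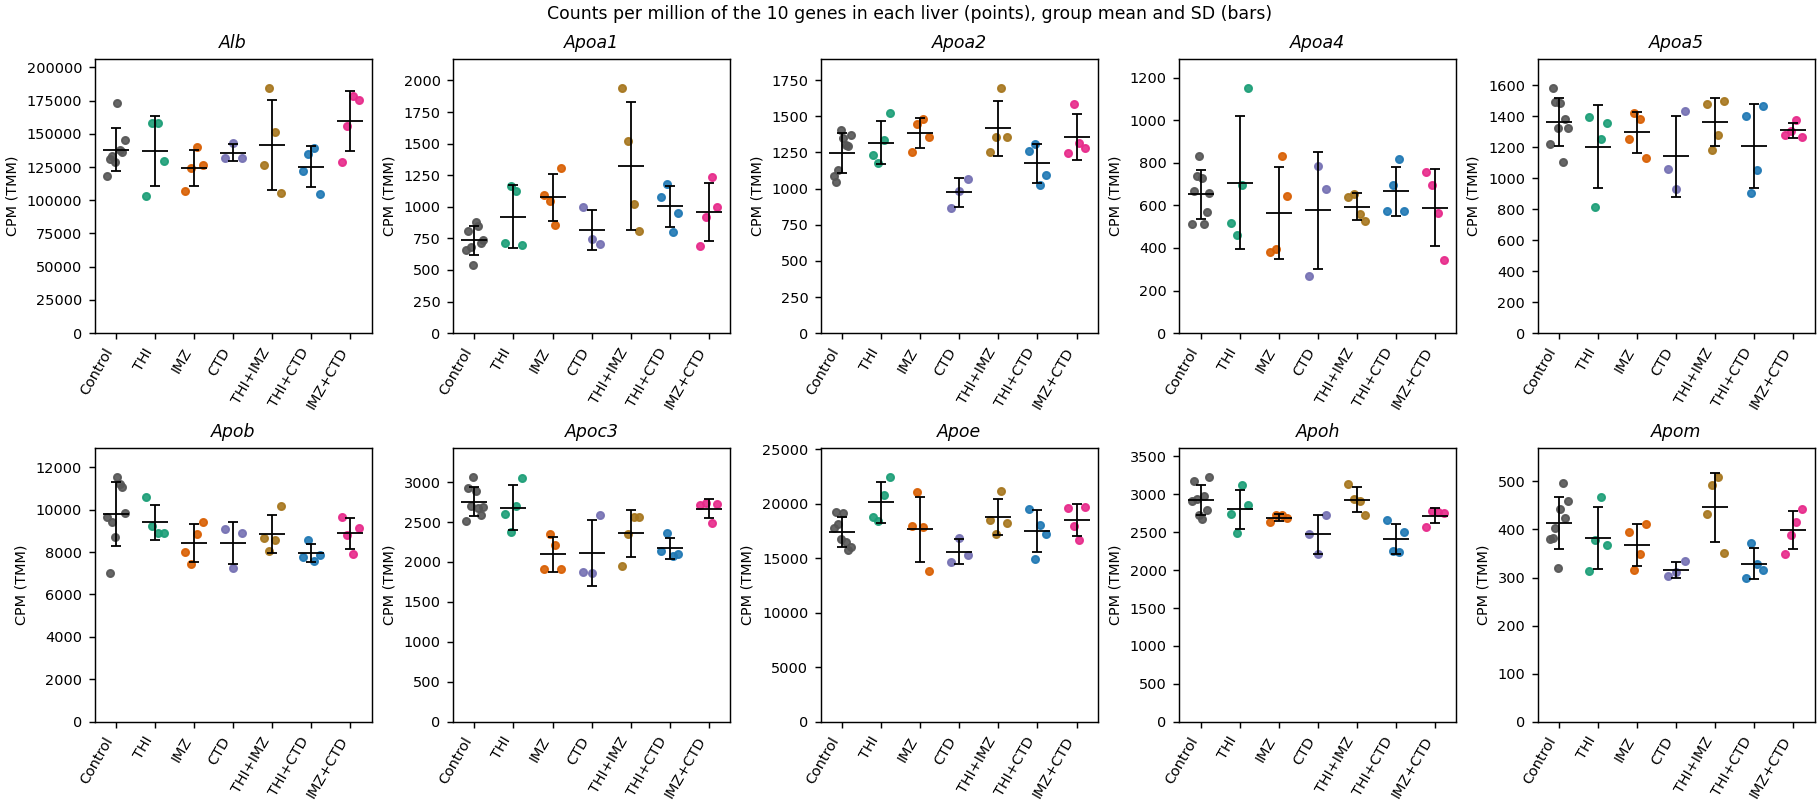
CPM after TMM normalization (vertical axes from 0) of each of the 10 genes in every liver (points) of the 7 groups, with the group mean and SD as bars. Apoa1 reaches 1937 CPM in a THI + IMZ liver against a control maximum of 882, and the 4 THI + CTD livers lie below all 8 controls for Apoc3 and Apoh.

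When all 7 groups were compared at once, 3 of the 10 genes differed, against 9.51% of all genes tested. These were Apoc3 (adjusted p = 0.00789), Apoa1 (0.0375) and Apoa2 (0.0382), all in the same edgeR model. Apom (0.0602) and Apoh (0.0761) missed the threshold, and Alb was far from it (0.55).

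Apoa1, the main protein of HDL, gave the largest change of the 10 genes, in the THI + IMZ livers. The controls held 541 to 882 CPM with a median of 726. The THI + IMZ livers held 1937, 1522, 1020 and 811 CPM. The first 3 of these lie above every control and the last falls inside the control range, so the groups overlap. Apoa1 rose 1.80-fold (log2FC 0.85, SE 0.18, 95% interval of the fold 1.40 to 2.33, edgeR adjusted p = 0.0121), and it was the only one of the 10 genes called for THI + IMZ, where 1.18% of all genes were called and 0.849% were called higher.

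The call for Apoa1 rested on the 2 highest livers. Without THI + IMZ replicate 1 the log2FC was 0.61 (edgeR adjusted p = 0.129), and without replicate 2 it was 0.78 (0.0525). No listed marker of another cell type was called in the THI + IMZ livers, and the summed intestinal markers there ran from 1.96 to 4.92 CPM against 2.17 to 3.77 CPM in the controls. The summed exocrine pancreas markers were lower there, at 76.9 to 270 CPM against 252 to 549 CPM, and the summed Kupffer cell markers ran from 474 to 643 CPM against 552 to 906 CPM. The part of these sums in the rise of Apoa1 was not tested.

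In the other treatments Apoa1 was positive but not called in the edgeR model of all 7 groups. The IMZ livers held 1091, 1045, 855 and 1308 CPM and the THI livers 713, 1161, 1122 and 696 CPM. Livers given THI + CTD held 1079, 1177, 802 and 953 CPM, those given IMZ + CTD 687, 916, 1235 and 1001 CPM, and those given CTD 995, 743 and 705 CPM. The highest control was exceeded by 3 livers each of IMZ, THI + CTD and IMZ + CTD, by 2 THI livers and by 1 CTD liver. The log2FC was 0.55 for IMZ (95% interval 0.18 to 0.92, edgeR adjusted p = 0.297), 0.45 for THI + CTD (0.178), 0.39 for IMZ + CTD (0.368), 0.33 for THI (0.637) and 0.15 for CTD (0.678). The doses of the single compounds differ, so their order is not a comparison of the compounds.

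Apoa2, also a protein of HDL, and Apom moved in the opposite sense after CTD. For Apoa2 the controls ran from 1043 to 1404 CPM with a median of 1297, and the CTD livers held 868, 984 and 1069 CPM. The third CTD liver falls inside the control range and the other two lie below it. Apoa2 fell by 0.36 on the log2 scale (SE 0.11, edgeR adjusted p = 0.0322) after CTD. In the THI + CTD livers, at 134 mg CTD, the values were 1260, 1312, 1028 and 1097 CPM, spread over the control range, and the log2FC was -0.09 (adjusted p = 0.686). The log2FC was 0.12 in IMZ + CTD, 0.15 in IMZ and 0.18 in THI + IMZ, none of them called.

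Apom ran from 320 to 497 CPM in the controls, with a median of 414. The CTD livers held 303, 311 and 335 CPM, the last of them just inside the lower end of the control range. Apom fell by 0.39 on the log2 scale after CTD (SE 0.12, edgeR adjusted p = 0.0364). In THI + CTD its 4 values of 299, 373, 329 and 315 CPM all lay below the control mean of 414 and the log2FC was -0.33 (adjusted p = 0.0879), while in IMZ + CTD the values of 349 to 443 CPM lay within the control range and the log2FC was -0.05 (0.877).

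Apoc3, the inhibitor of triglyceride clearance, was called lower in 2 of the 6 treatments. The controls ran from 2518 to 3063 CPM with a median of 2695. The CTD livers held 1877, 1864 and 2594 CPM, the first 2 below every control and the third inside the range. THI + CTD gave 2143, 2360, 2075 and 2105 CPM and IMZ gave 1907, 2344, 2208 and 1917 CPM, all 8 below the lowest control. Apoc3 fell by 0.38 on the log2 scale after CTD (SE 0.10, edgeR adjusted p = 0.0130) and by 0.34 after THI + CTD (SE 0.09, adjusted p = 0.0287). For IMZ the log2FC of -0.40 (SE 0.09) missed the threshold in edgeR (adjusted p = 0.0753).

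In IMZ + CTD, which combined the partners at 46 and 135 mg, Apoc3 held 2719, 2732, 2489 and 2722 CPM, and 3 of the 4 livers lay inside the control range. The log2FC was -0.05 (95% interval -0.24 to 0.14, edgeR adjusted p = 0.865). THI alone gave 2597, 2371, 2698 and 3050 CPM with a log2FC of -0.04 (0.936), and THI + IMZ gave 1947, 2355, 2565 and 2567 CPM with a log2FC of -0.22 (0.344).

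Apoh was the other gene lowered by THI + CTD. The controls ran from 2672 to 3228 CPM with a median of 2929, and the THI + CTD livers held 2656, 2251, 2236 and 2499 CPM, all below the lowest control although the highest of them only by a small margin. Apoh fell by 0.28 on the log2 scale (SE 0.08, edgeR adjusted p = 0.0259). In the CTD livers it held 2480, 2215 and 2724 CPM with a log2FC of -0.24 that missed the threshold (adjusted p = 0.0518). Of 11 alternatives 4 called it. These were DESeq2 (0.0103), the filter of filterByExpr (0.0310), the newer quasi-likelihood method (0.0449) and factors computed without the 10 most abundant genes (0.0420). The other alternatives did not, with an edgeR adjusted p of up to 0.246. Of 31 fits that each left out 1 rat, 8 called it. The IMZ livers were the most even, with 2639, 2721, 2727 and 2690 CPM, and a log2FC of -0.12 (0.722).

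For Alb, Apom and Apoh the RefSeq promoter is shown, since Apom and Apoh were among the genes that fell and Alb was not called in any treatment. The 250 bases before the annotated start are printed 5′ to 3′ on the strand of the gene, in build GRCr8, which is not the build of the counts. Capitals mark a match to 1 of 4 short motifs of liver promoters, searched on both strands of a 300-base window that also holds the first 50 bases of the transcript. RefSeq entries were matched for 6 of the 10 genes. The promoter set at hand held no entry for Apoa1, Apoa2, Apob and Apoc3, so their promoters could not be examined. Alb lies at chr14:17906980-17907229 (minus strand), Apom at chr20:3695368-3695617 (plus strand) and Apoh at chr10:93841742-93841991 (plus strand).
Alb: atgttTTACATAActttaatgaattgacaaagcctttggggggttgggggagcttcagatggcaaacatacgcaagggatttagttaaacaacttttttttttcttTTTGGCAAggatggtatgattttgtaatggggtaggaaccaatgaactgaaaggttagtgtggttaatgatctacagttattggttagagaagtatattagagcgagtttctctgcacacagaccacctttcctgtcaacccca
Apom: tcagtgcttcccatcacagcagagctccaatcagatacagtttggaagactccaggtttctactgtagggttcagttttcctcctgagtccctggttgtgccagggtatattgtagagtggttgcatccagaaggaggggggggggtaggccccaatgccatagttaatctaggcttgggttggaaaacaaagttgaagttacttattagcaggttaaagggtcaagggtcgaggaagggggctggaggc
Apoh: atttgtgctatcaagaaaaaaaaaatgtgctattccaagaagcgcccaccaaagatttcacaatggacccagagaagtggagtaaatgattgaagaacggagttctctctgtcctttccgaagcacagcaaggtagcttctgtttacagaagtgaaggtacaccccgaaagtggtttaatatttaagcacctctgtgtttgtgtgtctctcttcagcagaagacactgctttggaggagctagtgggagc

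The Alb window held a match to the letters of the D-box (TTATGTAA, a motif read by Dbp, Tef and Hlf) from position -245. It also held a match to the C/EBP pattern (TTGCNNAA) from -144. Both lay on the reverse strand, counted with the annotated start as 0. The matches did not overlap each other. Only these fixed patterns were searched, so sites with other letters stay unmarked, and a match does not show which factor binds. None of the 4 motifs, which also included the TATA box (TATAAA) and an HNF4 core (CAAAGTC), was found in the Apom or Apoh window. None was found in the Apoa4 window or in any Apoe window either, and the Apoa5 windows held a TATA box only. Apoa4, Apoe and Apoa5, like Alb, were called in no treatment. Of 33469 RefSeq promoters of the same length, 0.893% held the D-box, 10.6% the C/EBP site, 14.2% the TATA box and 4.61% the HNF4 core, so a match is a description of these letters only.

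Alb was called in none of the 6 treatments. The controls ran from 118588 to 173328 CPM with a median of 134861. The extremes over all 31 livers were 102943 CPM in a THI liver and 184174 CPM in a THI + IMZ liver. The log2FC ran from -0.15 in IMZ to 0.21 in IMZ + CTD, where the 95% interval was -0.07 to 0.48 (edgeR adjusted p = 0.559). For CTD the log2FC was -0.03 with an interval of -0.33 to 0.28, and for THI + CTD it was -0.14 with an interval of -0.42 to 0.14.

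Apob, the scaffold protein of very low density lipoproteins, was negative in all 6 treatments without a call in the main edgeR model. The sign depended on the processing, with alternatives reaching a log2FC of 0.12 in THI, 0.03 in THI + IMZ and 0.04 in IMZ + CTD. The median log2FC over all genes was negative in each treatment too, from -0.07 in CTD to -0.01 in THI. The controls ran from 7000 to 11534 CPM with a median of 9757, and the THI + CTD livers, at 7774, 8561, 7577 and 7855 CPM, all lay inside this wide range. Their log2FC was -0.30 (SE 0.11, edgeR adjusted p = 0.11). Control replicate 2, at 7000 CPM, was the lowest liver of all 31, and without it the log2FC was -0.36 with an adjusted p of 0.0237. Of the 31 fits that each left out 1 rat, this was the only 1 with a call. The edgeR adjusted p in these fits ran up to 0.269. In the other 5 treatments the log2FC ran from -0.22 in IMZ to -0.06 in THI.

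Apoe, Apoa5 and Apoa4 were called in no treatment. Apoe ran from 15767 to 19213 CPM in the controls and was highest in the THI livers, at 18778, 18438, 20807 and 22445 CPM, of which 2 exceeded every control (log2FC 0.21, SE 0.10, edgeR adjusted p = 0.551). Apoa5 had a log2FC between -0.26 in CTD and -0.003 in THI + IMZ, and the CTD livers at 1060, 933 and 1434 CPM straddled the lower end of the control range of 1102 to 1579 CPM. Apoa4 spanned 268 to 1149 CPM over the 31 livers, the lowest in a CTD liver and the highest in a THI liver, and its log2FC ran from -0.21 in IMZ to 0.11 in THI.

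**Figure D3:**
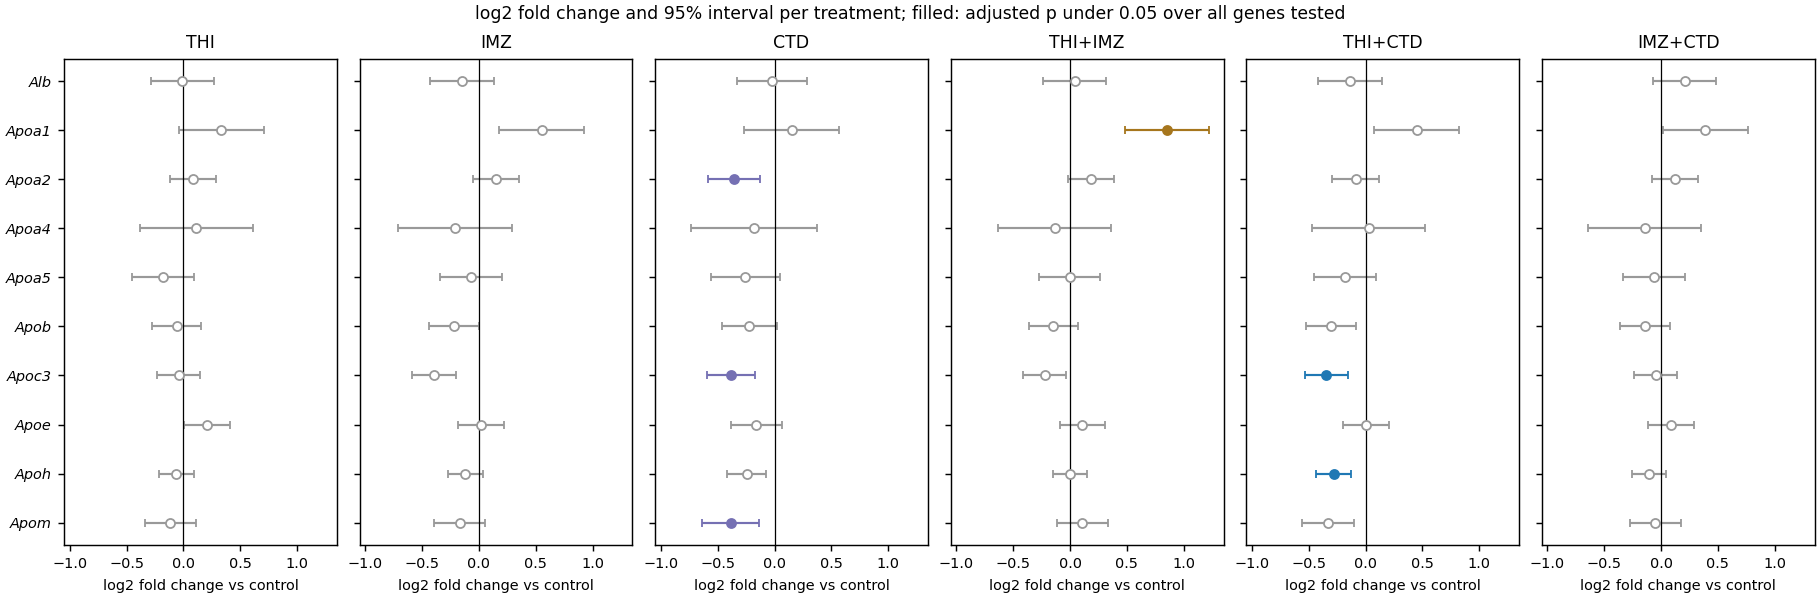
log2FC against the 8 controls (horizontal axes) of the 10 genes in each of the 6 treatments, with the 95% interval as bars. Filled points mark the 6 calls at an adjusted p under 0.05, which are Apoa2, Apoc3 and Apom in CTD, Apoa1 in THI + IMZ and Apoc3 and Apoh in THI + CTD.

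Counted by treatment, CTD lowered 3 of the 10 genes and raised none, where 12.7% of all genes were called and 6.03% were called lower. The log2FC was negative for 9 of the 10 genes, with a median of -0.23 against -0.07 over all genes tested and -0.11 over the 440 well-expressed genes, those with a mean log2 CPM over 8. THI + CTD lowered 2 of the 10, where 4.39% of all genes were called and 1.71% were called lower, and the median log2FC was -0.16 against -0.03 over all genes. In THI + CTD these 2 genes were also those without overlap between treated livers and controls, against 3.96% of all genes tested.

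THI called 0 of the 10 genes in edgeR and 0 in DESeq2, with 1 gene at an unadjusted p under 0.05 (Apoe), where 0.543% of all genes were called and 8.68% passed without adjustment. IMZ called 0 in edgeR and 1 in DESeq2 (Apoc3, adjusted p = 0.00323), with 3 genes at an unadjusted p under 0.05 (Apoa1, Apob and Apoc3), where 0.251% of all genes were called and 8.08% passed without adjustment. Apoc3 was 1 of the 10 genes without overlap in IMZ, against 1.27% of all genes tested. IMZ + CTD called 0 in edgeR and 0 in DESeq2, with 1 gene at an unadjusted p under 0.05 (Apoa1), where 1.46% of all genes were called and 12.8% passed without adjustment.

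The calls after CTD depended on which livers entered, while the log2FC stayed negative. Without CTD replicate 1 it was -0.31 for Apoc3 (edgeR adjusted p = 0.126), -0.28 for Apoa2 (0.206) and -0.36 for Apom (0.148). Without CTD replicate 2 it was -0.30 (0.124), -0.37 (0.0891) and -0.37 (0.121). The call for Apom was also lost without CTD replicate 3 (log2FC -0.43, adjusted p = 0.0559) and without control replicates 5 (0.0578), 6 (0.0672), 7 (0.0541) or 8 (0.0616), and that for Apoa2 without control replicate 8 (0.0512).

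For THI + CTD the call for Apoc3 was lost without replicate 1 (edgeR adjusted p = 0.0709), 3 (0.113) or 4 (0.0733), and that for Apoh without replicate 2 (0.110) or 3 (0.132). Apob and Apom joined the called genes of THI + CTD in DESeq2, with adjusted p of 0.0353 and 0.0394.

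Markers of several cell types were called in CTD and THI + CTD, and none in the other treatments. Over all genes 12.7% were called in CTD and 4.39% in THI + CTD, with 6.03% and 1.71% called lower. In CTD, 4 of 9 hepatocyte markers (Asgr1, Asgr2, Hal and Tat) and 5 of 11 Kupffer cell markers were lower, and the summed hepatocyte markers ran from 13782 to 17612 CPM against 16710 to 22270 CPM in the controls. The Kupffer sum ran from 441 to 678 CPM in CTD and 552 to 906 CPM in the controls. In THI + CTD, 4 of 9 hepatocyte markers (Asgr1, Hal, Tat and Tdo2) and 5 of 11 Kupffer markers were lower, with sums of 13941 to 17464 and 465 to 614 CPM.

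Red blood cell markers were higher for 4 of 7 and lower for 1 of 7 in CTD, with a sum of 157 to 188 CPM against 27.5 to 67.9 CPM in the controls, and 1 of 7 was higher in THI + CTD, with a sum of 34.7 to 217 CPM. Of the 10 markers of sinusoidal endothelium 2 were lower in CTD and 1 in THI + CTD, and of the 9 markers of stellate cells and fibroblasts 1 was higher and 1 lower in each. Of the 10 markers of T and NK cells Cd4 was lower in THI + CTD, where the sum was 13.3 to 17.1 CPM against 17.3 to 26.5 CPM in the controls, and none was called in CTD. The exocrine pancreas markers summed to 252 to 549 CPM in the controls, 51.0 to 217 CPM in CTD and 54.6 to 170 CPM in THI + CTD, with 1 and 2 of 9 called lower. This sum was also low in the other treatments, at 104 to 187 CPM in THI, 132 to 252 CPM in IMZ, 76.9 to 270 CPM in THI + IMZ and 162 to 268 CPM in IMZ + CTD, with 0 of 9 called in each. The intestinal marker Alpi had fewer than 2 counts over all livers and was not tested. The part of these shifts in the falls of Apoa2, Apoc3, Apoh and Apom was not tested.

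The mixtures were then set against the dose-weighted sum of their compounds, that is 0.5 times the log2FC of THI, 0.5 times that of IMZ and 0.47 times that of CTD, close to the shares of the single doses that the mixtures held. By edgeR, 0 of the 10 genes departed from the sum in each mixture, with a background of 0.0151% of all genes in THI + IMZ, 0.286% in THI + CTD and 1.16% in IMZ + CTD. Without adjustment, p was under 0.05 in THI + IMZ for 2 of the 10 (Apoa1 and Apom, background 6.46%), in THI + CTD for 0 (background 9.66%) and in IMZ + CTD for 3 (Alb, Apoa2 and Apoc3, background 14.3%). DESeq2 called 1 of the 10 genes in IMZ + CTD, where it called 603 of all genes. It called 0 of the 10 in THI + IMZ (54 of all genes) and in THI + CTD (174).

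Apoa1 in THI + IMZ had an observed log2FC of 0.85 against a dose-weighted sum of 0.44, a difference of 0.41 with a 95% interval of 0.04 to 0.78 (edgeR adjusted p = 0.725). Apom in the same mixture had 0.11 against -0.14 (difference 0.25, adjusted p = 0.718). In THI + CTD the observed values of Apoc3 and Apoh, -0.34 and -0.28, were lower than their sums of -0.20 and -0.15, with differences of -0.14 (95% interval -0.34 to 0.05) and -0.13 (-0.29 to 0.02) that were not called.

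The largest gap to the sum in IMZ + CTD was that of Apoc3. Its sum was -0.38 and its observed value -0.05, a difference of 0.33 (SE 0.09, 95% interval 0.14 to 0.52, edgeR adjusted p = 0.0678), and DESeq2 called it (adjusted p = 0.0115). All 10 genes lay above their sum in this mixture, by 0.04 to 0.33 with a median of 0.12, against a median of -0.02 over all genes tested and 0.07 over the 440 well-expressed genes. The sums of the 3 mixtures share the controls and the single-compound livers with each other, and CTD is represented by 3 livers.

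**Figure D4:**
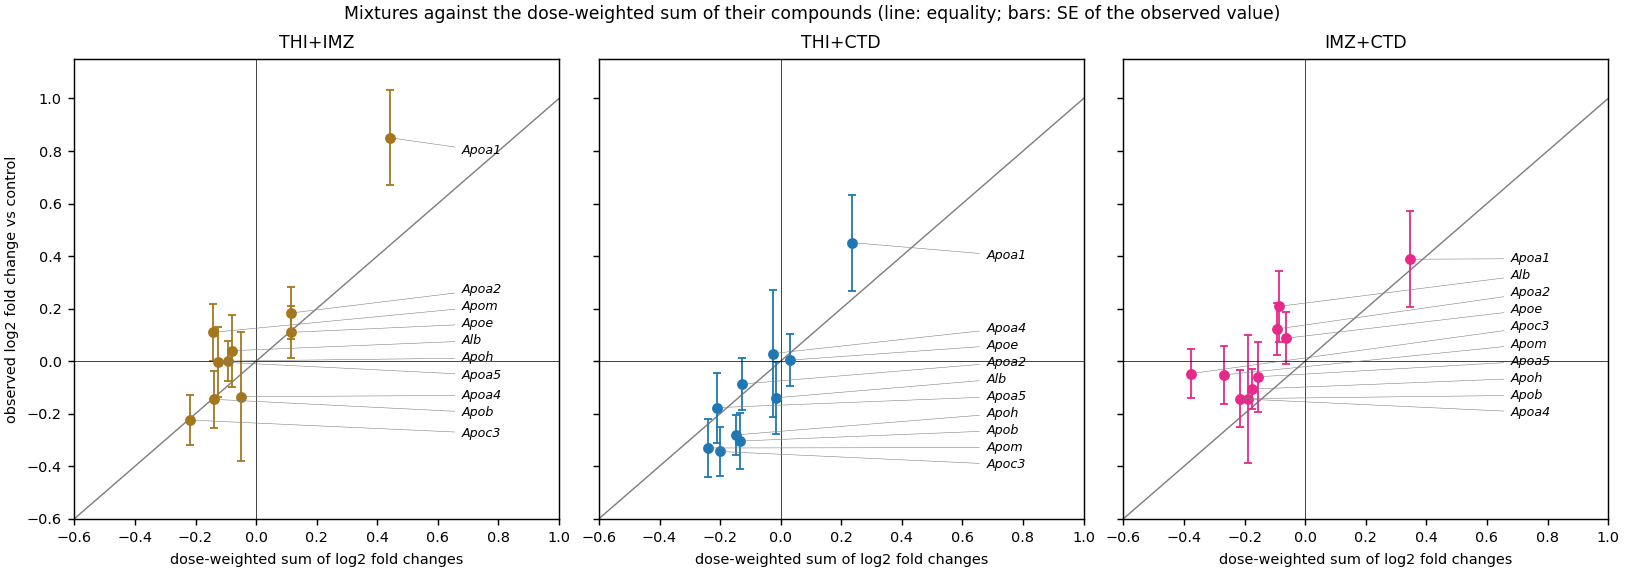
Observed log2FC of the 10 genes against controls (vertical axis, bars are the SE) and the dose-weighted sum of the log2FC of the compounds (horizontal axis) in the 3 mixtures, with a line of equality. All 10 genes lie above the line in IMZ + CTD, with Apoc3 farthest from it at an observed -0.05 and a sum of -0.38.

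Apoa1, Apoc3, Apoa4 and Apoa5 follow each other in the RefSeq gene order, between Sik3 and Zpr1. Calls differed among these neighbours, with Apoa1 called higher in THI + IMZ, Apoc3 called lower in CTD and THI + CTD, and no call for Apoa4 and Apoa5. Among the 6 pairs of these genes, the deviations of the 31 livers from their group means gave the largest correlation for Apoa1 and Apoc3 (r = -0.51, permutation p within groups = 0.0141, adjusted over 6 pairs 0.0848, and rho = -0.47, permutation p = 0.0234, adjusted 0.141). Without the 2 livers farthest from the median of Apoa1, r was -0.38. None of the 6 pairs, Apoa1 and Apoc3 included, had an adjusted permutation p under 0.05.

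The genes whose 6 log2FC lay nearest to those of Apoa1, by root mean square difference among 8869 genes with a mean log2 CPM over 2, were Synpo (0.11), Chchd4 (0.16), Mgst2 (0.17), Acad9 (0.19) and Ppcs (0.19). Synpo, a cytoskeletal protein, had a log2FC of 0.67 in THI + IMZ, 0.65 in IMZ and 0.22 in CTD. Of these 5, Mgst2, a microsomal glutathione transferase, was called in 2 treatments and the other 4 in none.

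The remaining genes of lipoprotein metabolism were described by lists. Among 15 tested genes of the other apolipoproteins and their companions, CTD lowered Apoc2, the activator of lipoprotein lipase, from 536 ± 77.5 CPM (SD, n = 8) to 336 ± 93.9 CPM (n = 3, log2FC -0.67, edgeR adjusted p = 0.0289) and raised Apool, a protein of the mitochondrial inner membrane despite its name (log2FC 0.45, adjusted p = 0.000958). THI + IMZ raised Apon (log2FC 0.55, adjusted p = 0.00562) and lowered Apol3 (log2FC -0.54, adjusted p = 0.0339). THI + CTD lowered Apobr, and 0 of the 15 were called in THI, IMZ or IMZ + CTD. Over all genes 12.7% were called in CTD, 1.18% in THI + IMZ and 4.39% in THI + CTD.

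Genes of particle assembly and secretion were mostly not called. Ces1d, a carboxylesterase that mobilizes stored triglyceride, was the exception. It ran from 267 to 491 CPM in the controls and from 711 to 957 CPM in THI + IMZ (log2FC 1.26, SE 0.15, edgeR adjusted p = 3.66e-06), and it also rose in THI + CTD (log2FC 0.99), IMZ + CTD (0.87), CTD (0.80) and THI (0.74). CTD lowered Dgat2, an enzyme of triglyceride synthesis (log2FC -0.50, adjusted p = 0.0268), and THI + CTD raised Dgat1 (0.25, adjusted p = 0.0326). Of 15 genes tested, 13 or 14 were not called in each of the treatments but IMZ, in which all 15 were not called. Over all genes 0.543% were called in THI, 0.251% in IMZ, 12.7% in CTD, 1.18% in THI + IMZ, 4.39% in THI + CTD and 1.46% in IMZ + CTD. The CTD count, with 1 of 15 higher and 1 lower, is near the share over all genes.

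HDL remodelling genes fell in CTD for 4 of 11 and rose for none, where 6.03% of all genes were called lower. Pltp, the phospholipid transfer protein, dropped from 30.9 ± 4.83 CPM (SD, n = 8) to 14.8 ± 1.17 CPM (n = 3, log2FC -1.06, edgeR adjusted p = 2.27e-05), and Abcg8, a subunit of the sterol exporter, had a log2FC of -1.56 (adjusted p = 0.0446). Lcat, the enzyme that Apoa1 activates, fell by 0.33 and Bmp1, a protease that processes pro-Apoa1, fell by 0.47 on the log2 scale. THI + CTD lowered Pltp (log2FC -0.57) and Abcg8 (-1.65) and raised Scarb1, the HDL receptor (0.29). The median of this list in CTD was -0.33 against -0.07 over all genes tested.

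Receptors and clearance genes fell in CTD for 3 of 14, where 6.03% of all genes were called lower. Lrp1, which takes up Apoe-bearing remnants, ran from 1505 to 2557 CPM in the controls and from 780 to 1029 CPM in CTD (log2FC -1.11, SE 0.16, edgeR adjusted p = 1.90e-05), and it held 1192 to 1359 CPM in THI + CTD (log2FC -0.68, adjusted p = 0.00423). Lsr, a receptor for lipoproteins rich in triglyceride, fell in CTD (log2FC -0.50), IMZ + CTD (-0.31) and THI + CTD (-0.26). Fcgrt, the receptor that protects albumin from degradation, fell by 0.33 on the log2 scale in CTD (adjusted p = 0.00937). Of 12 genes of triglyceride lipolysis 0 were called by edgeR in any treatment.

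**Figure D5:**
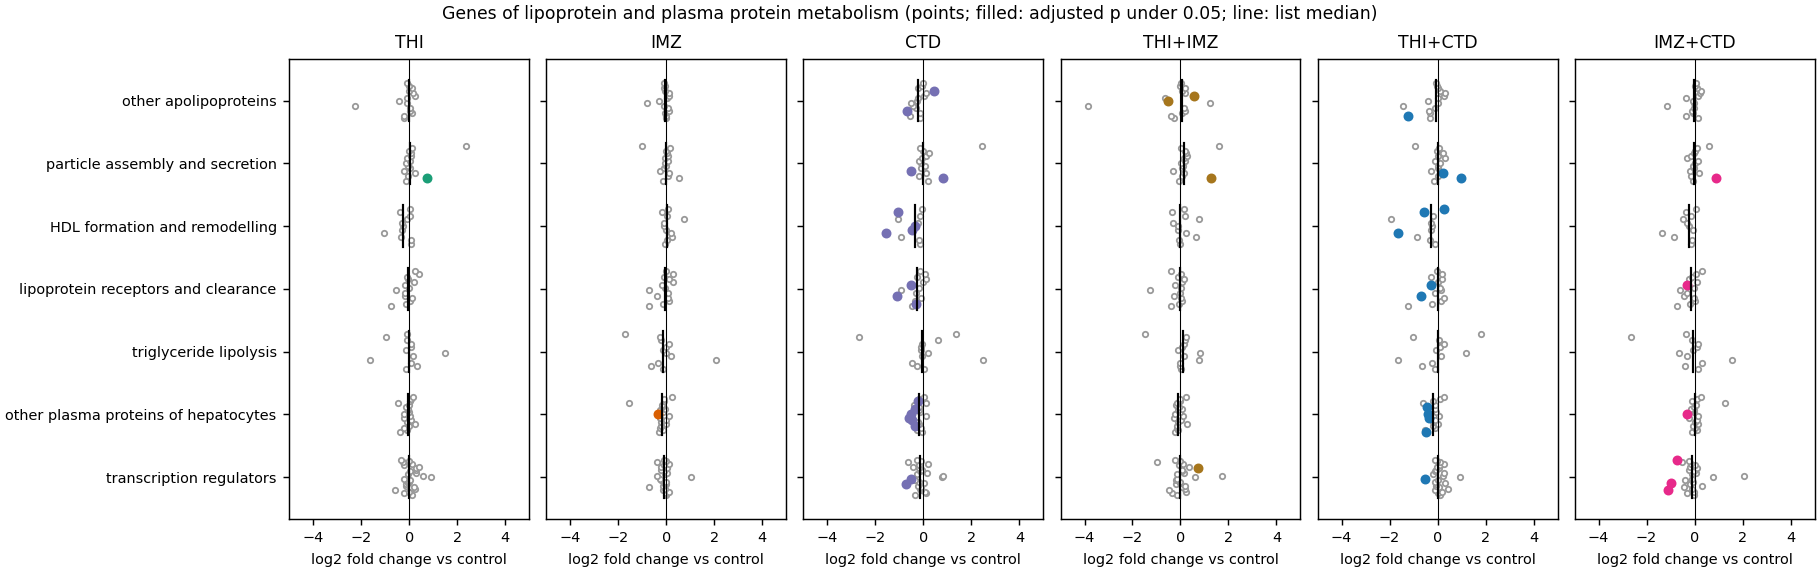
log2FC against controls (horizontal axes) of the tested genes of 7 lists (vertical positions) in each of the 6 treatments, with filled points for an adjusted p under 0.05 and a line at each list's median. In CTD the filled points of the HDL, receptor and plasma protein lists all lie below 0, and no point of the triglyceride lipolysis list is filled in any panel.

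Other plasma proteins of hepatocytes fell in CTD for 6 of 19, rose for none, and had a median log2FC of -0.20. Over all genes 6.03% were called lower in CTD and 1.71% in THI + CTD. Itih1, a heavy chain of the inter-alpha-trypsin inhibitor, held 1804 ± 96.1 CPM (SD, n = 8) in the controls and 1197 ± 105 CPM (n = 3) in CTD (log2FC -0.59, edgeR adjusted p = 1.36e-05), and Itih3 fell as well (-0.51). The other four called were Hpx, Ambp, Rbp4 and Serpinc1. THI + CTD lowered 4 of 19, with Afm, a gene of the albumin family (log2FC -0.47, adjusted p = 0.0158), Serpina1 (-0.43, adjusted p = 0.00228), Itih1 and Itih3. Itih3 was also called lower in IMZ (-0.34) and IMZ + CTD (-0.31), and was the only gene of this list called in these 2 treatments.

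Among 25 transcription regulators of these genes, CTD lowered 2, Foxo1 (log2FC -0.73, edgeR adjusted p = 0.000791) and Nfil3 (-0.53, adjusted p = 0.00350). This count is near the share over all genes, of which 6.03% were called lower in CTD. THI + IMZ raised Ppara, the receptor for fatty acids, from 16.3 ± 3.20 CPM (SD, n = 8) to 27.2 ± 3.23 CPM (n = 4, log2FC 0.73, adjusted p = 0.00312). IMZ + CTD lowered 3, where 1.46% of all genes were called. They were Dbp (log2FC -1.09, edgeR adjusted p = 0.000968), Hlf (adjusted p = 0.0211) and Tef (-0.73, adjusted p = 0.0332). All 3 read the D-box motif. The D-box match in the Alb window is one of letters only, and binding there was not measured. Alb had a log2FC of 0.21 in the same livers and was not called. A link between these values was not tested. THI + CTD lowered Nfil3 (-0.50), a repressor that reads the same motif, and 0 of 25 were called in THI or IMZ.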

How the data were processed

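Total RNA from frozen liver of 31 rats was sequenced as stranded paired-end libraries. Per the study's methods, the authors trimmed adapters with Skewer and mapped uniquely to Rnor_5.0 with STAR 2.5.2b, which also counted reads per Ensembl gene, after quality checks with FastQC 0.11.5 as the submitters' processing notes list. The deposited count table holds whole-number counts of 26312 genes without normalization. A further deposited file gives a signal in which the authors scaled the counts of 19904 genes by DESeq2 1.15.1 size factors, and it served only as a check of the counts. The annotation release and the strand setting of the counting are not given in the sources used here, so reads of overlapping antisense genes may be shared.

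The counts were fitted in edgeR 4.0.16 (R 4.3.3). Genes under 2 counts in total were dropped, TMM factors applied, and 1 model with a mean per group fitted to all 31 libraries by the older quasi-likelihood method. Each treatment was set against control, each mixture against the dose-weighted sum, and the 7 groups against each other, with Benjamini-Hochberg adjustment across 19904 genes and a threshold of 0.05. Dividing each log2 fold change by the root of its F statistic gave the SE. Alternatives were other scalings and filters, DESeq2 1.42.0, a replicate block, thinned counts, a fit of 2 groups only, and leaving out each rat. The newer quasi-likelihood method and factors computed without the 10 most abundant genes were chosen after seeing the data. Scripts were tested on simulated data. No 2 libraries of a group agreed within sampling noise (smallest chi-square per degree of freedom 30.8).

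The members and gene lists were chosen with earlier results of these data known. All 10 members are named. From each list at most 2 called genes per treatment with the largest change and a mean log2 CPM over 0 were given first, together with the 5 genes nearest to the member of the largest called change. Lcat, Bmp1, Fcgrt, Scarb1, Tef, Apobr and the genes and markers named only as called were added to complete their counts. Some regulators of these genes are not reported here and were left out of their list. Library totals of 31.8 to 101 M counts gave at least 10286 counts for each member in each library, so the spread among rats limits the precision.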

Additional observations from a re-analysis of the deposited data

Results flagged for a closer look

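In 2 of 60 sets of 4 to 8 livers (10 genes in the 6 groups of that size), 1 liver stood apart from the rest of its group by the size of its gap relative to the range, and chance alone gives this in about 1 of 20 sets. Both were in IMZ + CTD, in different rats. Apoc3 was 2489 CPM in replicate 3, where the nearest of the other three livers held 2719 CPM. Apoh was 2575 CPM in replicate 1, where the nearest held 2759 CPM. In both genes the other three livers of the group lay within a narrow range, and neither gene was called in IMZ + CTD.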

How the results depend on the processing

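Across all alternatives, 3725 of 3780 log2 fold changes of the 10 genes kept their side of the threshold, 30 lost their call, 25 gained one and 0 of the called ones changed sign, while 105 uncalled values did. Counts of genes called are given beside those above. IMZ gave 1 of the 10 (Apoc3) with the stricter filter of filterByExpr, with the Wald test of DESeq2 and in a fit of 2 groups. These called 55, 150 and 93 of all genes. CTD gave 1 (Apoc3) and THI + CTD 0 with library totals in place of TMM factors, which called 2387 and 977 of all genes. THI + CTD gave 4 with DESeq2, which called 1386 of all genes. For IMZ + CTD against the sum, filterByExpr and DESeq2 each gave 1 (Apoc3), and DESeq2 gave 5 in the test of the 7 groups. In a fit of 2 groups THI + CTD again gave 2, but with Apoa1 called (edgeR adjusted p = 0.0389) and Apoh not called (0.0613). The same kind of fit gave 2 for CTD, without Apoa2 (0.0525). The cause of these shifts was not tested.

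Leaving out each rat in turn gave 0 to 4 called for CTD, where 1470 to 2573 of all genes were called. It gave 0 to 3 for THI + CTD (450 to 969 of all genes), 0 to 1 for THI + IMZ (143 to 297) and 0 to 1 for IMZ (28 to 61). For IMZ + CTD against the sum it gave 0 to 1 (66 to 285), and for the 7 groups 1 to 4 (1334 to 2067). Each fit gave 0 for THI (67 to 120) and for IMZ + CTD (98 to 366). The sums of THI + IMZ (1 to 9) and THI + CTD (30 to 75) also gave 0 in each fit. Apoc3 in IMZ was called without CTD replicate 3 (edgeR adjusted p = 0.0308) or THI + IMZ replicate 1 (0.0476), and Apoc3 in IMZ + CTD against the sum without CTD replicate 3 (0.0139). In the test of the 7 groups 1 gene was called without CTD replicate 2 or 3.

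Same-numbered rats of different groups had a median correlation of 0.03 (range -0.33 to 0.51), against -0.007 for rats of different numbers. Of 78 same-numbered pairs 23 had a correlation over 0.1, and 9 of 31 rats correlated best with their own number. With values on both sides of 0, this check does not decide whether the numbers mark a pairing or a batch. With the number as a replicate block, CTD gave 1 of the 10 genes (Apoc3), THI + IMZ 0, THI + CTD 0 and the 7 groups 1, with an edgeR adjusted p of 0.0607 for Apoa1 in THI + IMZ, and the block changed no other count of the 10. Over all genes the block called 45 for THI, 23 for IMZ, 1571 for CTD, 53 for THI + IMZ, 348 for THI + CTD, 80 for IMZ + CTD, 1216 for the 7 groups and 6 for THI + IMZ against the sum.

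Over all genes DESeq2 called 199 for THI, 150 for IMZ, 435 for THI + IMZ, 1386 for THI + CTD, 567 for IMZ + CTD, 3329 for the 7 groups, and 54, 174 and 603 for THI + IMZ, THI + CTD and IMZ + CTD against the sum, where edgeR gave 3, 57 and 230. IMZ gave 93 in a fit of 2 groups, and IMZ + CTD against the sum gave 391 with filterByExpr and 426 with library totals. Another scaling moved the median log2FC of all genes by at most 0.08. Counts thinned to the smallest library called 3 of the 10 genes for CTD, 2 for THI + CTD and 1 for THI + IMZ, the same numbers as at full depth.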
